A study of Homo sapiens with 6 samples.

Results

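The sterol regulatory element binding protein (SREBP) system was examined in Huh7 cells, a human hepatoma line, through the mRNA of 8 genes: SREBF1 and SREBF2, SCAP, INSIG1 and INSIG2, MBTPS1 and MBTPS2, and RNF139. They were taken by name, and all 8 were found among the 57905 Ensembl gene IDs of the deposited table. The study compared cells transfected for 72 h with a scrambled siRNA (siControl, 3 libraries) with cells transfected for as long with an siRNA against ASGR1 (siASGR1, 3 libraries). Both groups are the same line in the same medium with 10% serum, and both went through transfection. ASGR1 codes for the main chain of the asialoglycoprotein receptor, which clears desialylated glycoproteins. Huh7 is 1 tumour line, not primary hepatocytes, and the labels give no siRNA sequence and do not say whether the libraries came from separate cultures. P-values thus rest on variation among these 6 libraries, part or all of which could be technical.

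SREBP-1 and SREBP-2 are transcription factors made as precursors in the membrane of the endoplasmic reticulum. When sterols are low, the escort protein SCAP carries them to the Golgi, where the site-1 and site-2 proteases release the part that enters the nucleus. When sterols are high, the INSIG proteins hold SCAP back, and they also bring ubiquitin ligases to sterol-sensitive proteins of the same membrane. In liver, SREBP-1c mainly drives fatty acid genes and SREBP-2 mainly drives cholesterol genes. mRNA levels say nothing of how much precursor is cleaved.

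The 250 bases before the RefSeq start (GRCh38.p14) of both SREBF genes and of INSIG1 are shown, because these genes are known SREBP targets themselves and their mRNA went different ways. Capitals mark matches on either strand to the classical sterol regulatory element SRE-1 (the 10 capitals in the SREBF2 line), its relaxed form TCACNCCAC, the E-box CACGTG and the CCAAT box, which reads ATTGG when inverted. SREBF1 lies at chr17:17836987-17837236 on the minus strand, SREBF2 at chr22:41832855-41833104 and INSIG1 at chr7:155297628-155297877, both on the plus strand.
SREBF1: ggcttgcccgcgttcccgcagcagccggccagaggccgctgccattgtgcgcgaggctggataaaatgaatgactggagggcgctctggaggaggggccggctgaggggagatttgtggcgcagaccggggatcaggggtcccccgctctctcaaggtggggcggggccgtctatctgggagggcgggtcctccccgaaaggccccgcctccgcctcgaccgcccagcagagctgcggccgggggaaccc
SREBF2: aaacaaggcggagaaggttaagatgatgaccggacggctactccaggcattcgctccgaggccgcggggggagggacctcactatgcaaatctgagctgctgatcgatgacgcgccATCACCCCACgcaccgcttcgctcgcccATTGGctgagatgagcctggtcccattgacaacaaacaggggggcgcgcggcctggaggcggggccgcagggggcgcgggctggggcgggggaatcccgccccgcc
INSIG1: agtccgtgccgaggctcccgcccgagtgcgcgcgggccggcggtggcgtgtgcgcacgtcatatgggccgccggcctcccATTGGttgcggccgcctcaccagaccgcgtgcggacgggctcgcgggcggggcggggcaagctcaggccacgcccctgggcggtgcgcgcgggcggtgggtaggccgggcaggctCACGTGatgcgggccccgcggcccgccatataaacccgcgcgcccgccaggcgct

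The SREBF2 window held 1 copy of SRE-1, beginning 134 bases before the start, with an inverted CCAAT box beginning 106 bases before it. The same place matches the relaxed form, which overlaps the classical one. Of 35116 RefSeq windows of this length, 0.0342% (12) held SRE-1, 0.883% the relaxed form, 6.34% the E-box and 32% the CCAAT box. INSIG1 held an inverted CCAAT box 170 bases and an E-box 55 bases before its start, and neither form of the sterol element. SREBF1 held none of these 4 motifs in its window. GENCODE v29 gives SREBF1 23 transcript starts, so this window does not show the promoter of every isoform. It lies at the upstream end of the gene. Promoters at starts further inside SREBF1, and any motif in them, were not examined. For all 3 genes GENCODE has an earlier start than the RefSeq one used, so the ends of the windows lie inside the gene in that annotation. The DR4 direct repeat of AGGTCA, a form of the element bound by the oxysterol receptors LXR, was in 0.0142% of windows and in none of these 3. These matches are descriptions of letters. They differ between SREBF2, which fell, and SREBF1 and INSIG1, which rose, and also between SREBF1 and INSIG1. A link between motifs and direction was not tested. MID1IP1, a regulator of fatty acid synthesis, was the other gene of the pathway lists whose window held SRE-1. It rose from 34.0 ± 1.56 to 57.7 ± 4.09 FPKM (SD, n = 3), while SREBF2 fell.

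The FPKM values (fragments per kilobase of gene length, relative to library size) rested on about 16310000 to 19315000 fragments in siControl and 18469000 to 19255000 in siASGR1, as rebuilt from the steps between low values. The targeted gene, ASGR1, was 17.54, 17.56 and 16.90 in siControl, and 4.60, 4.82 and 4.71 in siASGR1 in the table of the whole series (log2 fold change -1.68, limma adjusted p = 1.75e-06). The files of single libraries gave 14.65, 15.81 and 14.04 for the same siASGR1 libraries (-0.21, adjusted p = 0.00954). How far the knockdown went is therefore unsettled, whereas the values of the 8 members were the same in both sources. The 8 hepatocyte markers examined summed to 3360 to 3487 FPKM in siControl and 6381 to 6475 in siASGR1. The 6 fibroblast markers summed to 5.49 to 6.62 and 0.59 to 0.85. None of the 6 was at 0 in all libraries. Of 4 measured endothelial markers, 2 (KDR and TEK) were at 0 in every library and the sums were at most 0.21. Immune markers other than LYZ summed to 1.02 to 1.35 and 0.27 to 0.48. LYZ alone was 67.57 to 75.11 and 114.21 to 117.6. The part of these differences in the results below was not tested, and in bulk RNA fewer cells of a type and less RNA per cell cannot be told apart.

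SREBF1 rose and SREBF2 fell, and together these were the widest differences among the members. INSIG1 and MBTPS2 rose by smaller amounts and RNF139 fell, while SCAP, INSIG2 and MBTPS1 did not pass the test. A gene was called at an adjusted p under 0.05 from limma on log2(FPKM + 1), over 13568 tested genes. All 8 members passed the filter on low values. Of them 5 were called, 3 higher and 2 lower, but 61.3% of all tested genes were called (20.9% higher and 40.4% lower), so the number called is near the background. Groups did not overlap for 7 of 8 members and for 67.3% of tested genes. The median log2 fold change was 0.077 over the members and -0.13 over all tested genes. Median-of-ratios scaling, which centres the typical gene, moved the median of all genes by 0.13 to -0.0072, and members are therefore given under both scalings where it matters. With it 4 members were higher and 1 lower, against 58.8% of all tested genes called (29.9% higher and 28.9% lower).

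**Figure D1:**
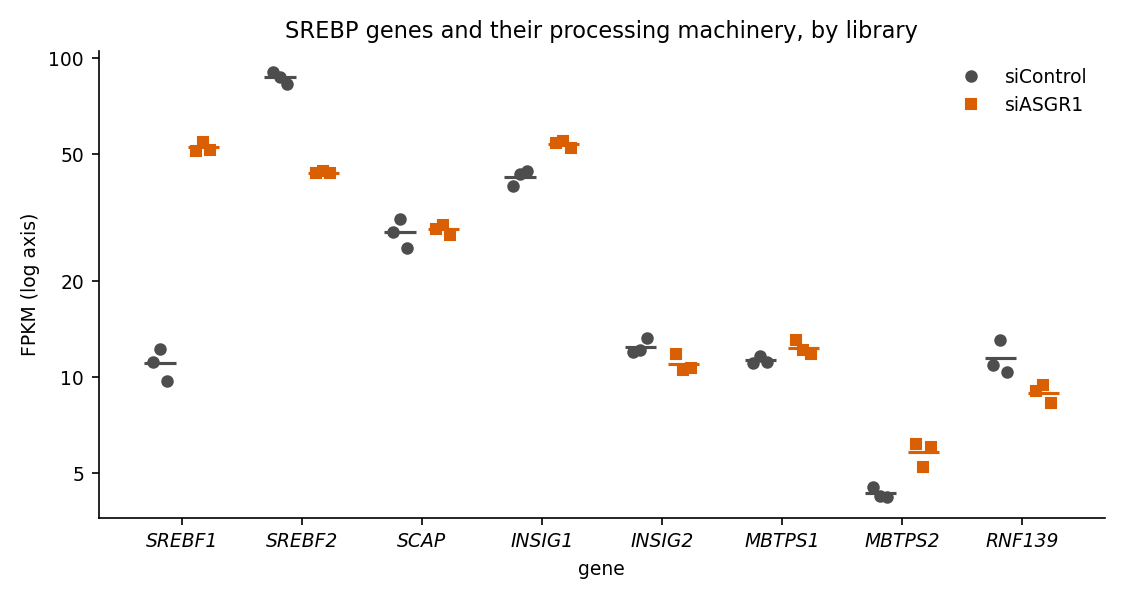
FPKM of each member in each library, on a log axis. Circles are the 3 siControl libraries, squares the 3 siASGR1 libraries, and short lines the group means. SREBF1 moves from about the level of MBTPS1 to that of INSIG1, SREBF2 moves down, and the SCAP values of the groups overlap.

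SREBF1 (ENSG00000072310; GRCh38 chromosome 17, 17810399 to 17837002, minus strand) encodes both SREBP-1 isoforms, 1a and 1c, which gene-level FPKM do not separate. It was 11.18, 12.29 and 9.71 FPKM in siControl and 51.35, 54.68 and 51.58 in siASGR1. Every siASGR1 library was over 39 FPKM above the highest siControl library. Means were 11.1 ± 1.29 and 52.5 ± 1.86 (SD, n = 3), a 4.75-fold rise. On the log2 scale of FPKM + 1 the difference was 2.16 (SE 0.079, limma adjusted p = 3.1e-06). It ranked 15 from the top of the 13568 tested genes. Over the alternatives its adjusted p stayed between 6.88e-08 and 9.57e-05.

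SREBF2 (ENSG00000198911; chromosome 22, 41833079 to 41907308, plus strand), which encodes SREBP-2, was 90.62, 87.46 and 83.36 FPKM in siControl and 43.54, 44.22 and 43.72 in siASGR1. The siASGR1 values lay within 1 FPKM of each other and far below all siControl values. The mean fell from 87.1 ± 3.64 to 43.8 ± 0.35, which is 1.99-fold lower (log2 fold change -0.97, SE 0.041, adjusted p = 4.49e-06). Under median-of-ratios scaling it was -0.82 (adjusted p = 1.14e-05). The ranks of this decrease and of the SREBF1 increase differ: 568 tested genes had a change as low as that of SREBF2 or lower.

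Because the changes were opposite and of like size in FPKM, the summed level of both genes, looked at after the single values were seen, was 93.07 to 101.8 FPKM in siControl and 94.89 to 98.90 in siASGR1. The means were 98.2 ± 4.57 and 96.4 ± 2.21. Since the sum was chosen for the opposite changes, it is a description with no test. SREBF1 made up 11.2% ± 0.97 of the sum in siControl and 54.5% ± 0.67 in siASGR1 (SD, n = 3). The ratio of SREBF1 to SREBF2, which library scaling by a single factor cannot change, was 0.12, 0.14 and 0.12 in siControl. It was 1.18, 1.24 and 1.18 in siASGR1. The ratio was thus 9.48-fold higher, with no overlap (exact two-sided permutation p = 0.1, the smallest that 3 against 3 libraries allow; 0.125 adjusted over 5 ratios).

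**Figure D2:**
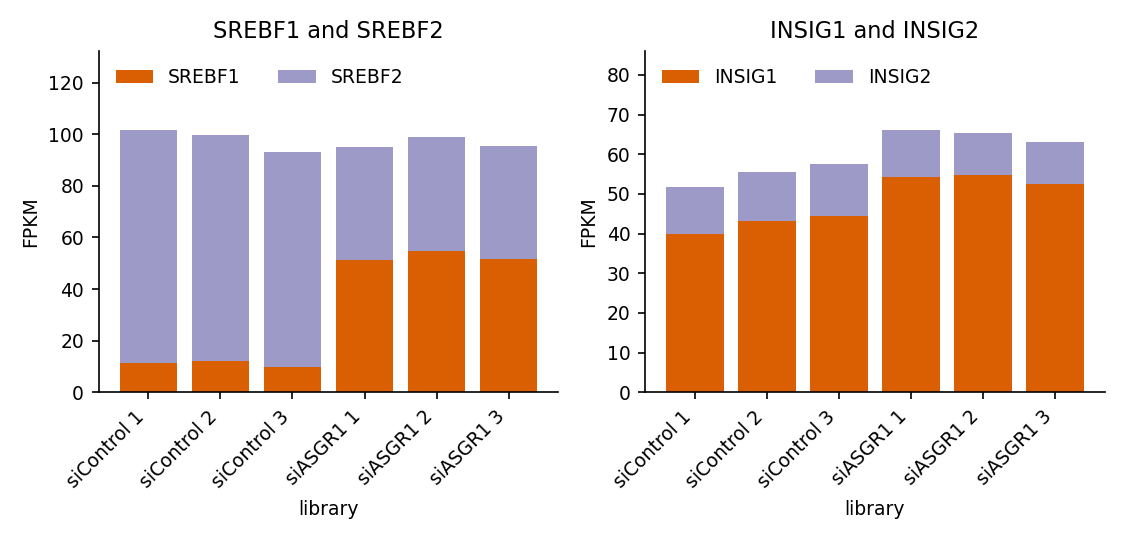
Stacked FPKM of SREBF1 with SREBF2 (left) and of INSIG1 with INSIG2 (right) in each library, on axes from 0. The SREBF bars reach 93.07 to 101.8 in siControl and 94.89 to 98.90 in siASGR1, and SREBF1 fills 11.2% and 54.5% of them on average; the INSIG bars are taller in siASGR1.

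Both SREBF genes overlap other annotated genes, and the strand setting of the authors' counting is not given in the sources used here. RAI1, on the opposite strand, shares 1055 bases with the end of SREBF1 and was 3.24 ± 0.046 and 3.83 ± 0.10 FPKM (log2 fold change 0.19, adjusted p = 0.0202). SREBF2-AS1, an antisense RNA across the start of SREBF2, was 3.18, 2.79 and 2.60 FPKM in siControl and 1.52, 1.86 and 1.88 in siASGR1. It fell with its partner (log2 fold change -0.49, SE 0.092, adjusted p = 0.00294). Without strand, reads of the 1587 shared bases cannot be told apart.

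Each SREBF gene also carries a microRNA of the miR-33 family in an intron, known to repress the sterol exporter ABCA1. The mature 5p arms (RefSeq, GRCh38.p14) are shown because they share one seed, in capitals (bases 2 to 8), although their hosts went opposite ways.
hsa-miR-33b-5p, host SREBF1, chr17:17813897-17813916, minus strand: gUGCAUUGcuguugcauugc
hsa-miR-33a-5p, host SREBF2, chr22:41900949-41900969, plus strand: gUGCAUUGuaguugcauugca

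These libraries do not measure mature microRNAs, which are too short for them. The FPKM listed for the hairpin genes rested on 0 to 6 fragments per library. MIR33A had 4, 1 and 0 fragments in siControl and 1, 0 and 1 in siASGR1. MIR33B had 0, 2 and 3, and 1, 2 and 6. The groups overlapped for both genes, and a difference was not detectable at this depth, since 0 fragments allow up to 3, or 1.62 to 2.67 FPKM. This limit covers counting error only.

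SCAP (ENSG00000114650; chromosome 3, 47413694 to 47477126, minus strand), the sterol sensor and escort, was 28.55, 31.41 and 25.41 FPKM in siControl and 29.14, 30.06 and 27.99 in siASGR1. All siASGR1 values lay inside the siControl range. The log2 fold change was 0.034 (95% interval -0.14 to 0.21, adjusted p = 0.716), and 0.18 with median-of-ratios scaling (interval -0.0071 to 0.37, adjusted p = 0.0876). The missed threshold does not show equal levels.

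INSIG1 (ENSG00000186480; chromosome 7, 155297776 to 155310235, plus strand) encodes the retention protein whose own gene is a classical SREBP target. It was 39.87, 43.30 and 44.39 FPKM in siControl and 54.38, 54.85 and 52.41 in siASGR1. The lowest siASGR1 library stood 8.02 FPKM above the highest siControl library. Means were 42.5 ± 2.36 and 53.9 ± 1.29, a 1.27-fold rise (a log2 difference of 0.34, SE 0.049, adjusted p = 0.000852). It was 0.49 with median-of-ratios scaling and 0.27 with quantile normalization, and called in both.

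INSIG2 (ENSG00000125629; chromosome 2, 118088452 to 118110997, plus strand), the second retention protein, was 11.97, 12.16 and 13.26 FPKM in siControl and 11.83, 10.52 and 10.70 in siASGR1. The groups were 0.14 FPKM apart. The log2 fold change was -0.16 (95% interval -0.31 to -0.019), and it missed the threshold (adjusted p = 0.051). It was called when FPKM of at least 5 were required (adjusted p = 0.0395) and without siASGR1 replicate 1 (0.0264), and was -0.024 with median-of-ratios scaling (adjusted p = 0.748). INSIG2 thus sat near the median of all genes, with a difference from that median of -0.030.

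The INSIG paralogs therefore differed from each other. INSIG1 to INSIG2 was 3.33, 3.56 and 3.35 in siControl and 4.60, 5.21 and 4.90 in siASGR1, a ratio 1.44-fold higher with no overlap. Their sum was 51.84 to 57.65 FPKM in siControl and 63.11 to 66.21 in siASGR1. SCAP to the summed INSIG level was 0.55, 0.57 and 0.44, and 0.44, 0.46 and 0.44. These values overlapped, and siControl replicate 3 lay with the siASGR1 libraries. INSIG1 to SREBF2 was 0.44, 0.495 and 0.53, and 1.25, 1.24 and 1.199, so that INSIG1 was below SREBF2 in every siControl library and above it in every siASGR1 library. By exact two-sided permutation test, the SCAP ratio gave p = 0.3 and the INSIG1 to INSIG2 and INSIG1 to SREBF2 ratios gave 0.1, the smallest possible (0.125 adjusted over 5 ratios).

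**Figure D3:**
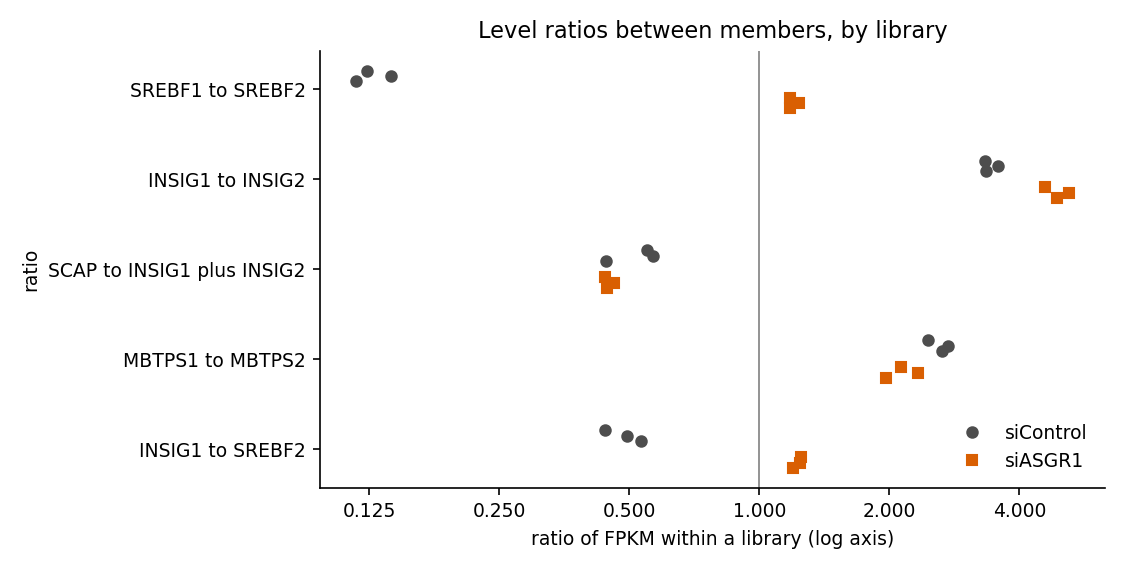
Ratio of FPKM between members within each library, on a log axis; circles are siControl and squares siASGR1 libraries, 3 each, and the line marks equal levels. SREBF1 to SREBF2 and INSIG1 to SREBF2 cross from below 1 to above 1, and SCAP to summed INSIG is the ratio whose groups overlap.

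MBTPS1 (ENSG00000140943; chromosome 16, 84053761 to 84116906, minus strand) encodes the site-1 protease, which makes the first cut. It was 11.09, 11.65 and 11.16 FPKM in siControl and 13.12, 12.16 and 11.84 in siASGR1. The groups were 0.19 FPKM apart. The log2 fold change was 0.12 (95% interval -0.0011 to 0.24, adjusted p = 0.0784), short of the threshold. Scaling decided the call: it was 0.26 with median-of-ratios (adjusted p = 0.00396), 0.19 with upper-quartile (0.0134) and 0.20 with quantile scaling (0.014).

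MBTPS2 (ENSG00000012174; chromosome X, 21839636 to 21885424, plus strand) encodes the site-2 protease, which makes the second cut inside the membrane. It had the lowest level of the 8, at 4.51, 4.25 and 4.22 FPKM in siControl and 6.18, 5.22 and 6.02 in siASGR1. All siASGR1 libraries were higher, with replicate 2 closest to the controls. Means were 4.33 ± 0.16 and 5.81 ± 0.51, a 1.34-fold rise (a log2 difference of 0.35, SE 0.070, adjusted p = 0.0037). The adjusted p stayed at or below 0.0166 over the alternatives. These values rested on about 614 to 1035 fragments per library. YY2, a gene nested in MBTPS2 on the same strand, was 0.29 to 0.47 FPKM in siControl and 0.47 to 0.67 in siASGR1. MBTPS1 to MBTPS2 was 2.46, 2.74 and 2.64 in siControl and 2.12, 2.33 and 1.97 in siASGR1, without overlap (exact permutation p = 0.1, the smallest possible; 0.125 adjusted over 5 ratios).

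RNF139 (ENSG00000170881; chromosome 8, 124474738 to 124487914, plus strand) encodes TRC8, a ubiquitin ligase of the endoplasmic reticulum that binds INSIGs. It was 10.88, 13.11 and 10.39 FPKM in siControl and 9.07, 9.44 and 8.27 in siASGR1. The groups were 0.95 FPKM apart, and siControl replicate 2 stood above its group. The mean was 11.5 ± 1.45 and 8.93 ± 0.598, 1.28-fold lower (log2 fold change -0.32, SE 0.089, adjusted p = 0.0162). The call was lost with median-of-ratios scaling (-0.18, adjusted p = 0.128), with quantile normalization (-0.22, 0.0782), with no filter (0.0513) and without siASGR1 replicate 3 (0.0541). Fewest fragments of the 8 stood behind it, about 430 to 595 per library.

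**Figure D4:**
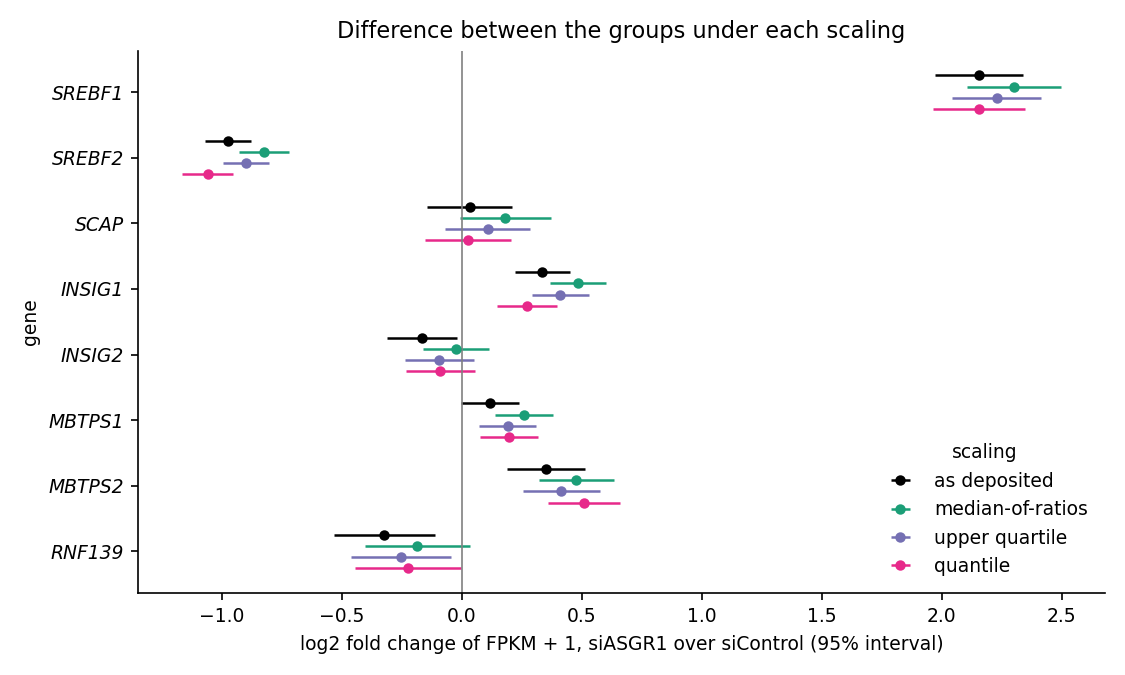
Log2 fold change of FPKM + 1, siASGR1 over siControl, with 95% intervals from limma, for each member under 4 scalings. SREBF1, SREBF2, INSIG1 and MBTPS2 lie on 1 side of 0 under all 4, while the intervals of INSIG2, MBTPS1 and RNF139 touch or leave 0 with the scaling.

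The order of levels within a group changed as well; FPKM are per length, so genes can be set side by side. In siControl the means ran from SREBF2 (87.1 FPKM) through INSIG1 (42.5) and SCAP (28.5) to INSIG2 (12.5), RNF139 (11.5), MBTPS1 (11.3) and SREBF1 (11.1), with MBTPS2 (4.33) last. From INSIG2 to SREBF1 each neighbour overlapped the next across libraries, so these 4 have no firm order. In siASGR1, INSIG1 (53.9) and SREBF1 (52.5) led and overlapped each other, followed by SREBF2 (43.8), SCAP (29.1), MBTPS1 (12.4), INSIG2 (11.02), RNF139 (8.93) and MBTPS2 (5.81). The lowest MBTPS1 and the highest INSIG2 library of that group all but met. The spread between siControl libraries was widest for RNF139, SREBF1 and SCAP, with coefficients of variation of 12.7%, 11.7% and 10.5%. For these 3 genes siControl replicate 2 was the highest and replicate 3 the lowest.

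Genes with a pattern much like that of SREBF1 included LGALS3 and CEBPD. Likeness was the root mean square difference, over the 6 libraries, of log2(FPKM + 1) less each gene's siControl mean, among 12390 named genes. It was 0.078 and 0.11 on the log2 scale for these genes. LGALS3, which encodes the lectin galectin-3, went from 7.66 ± 0.96 to 35.0 ± 1.76 FPKM. For SREBF2 the nearest were SRPRA, SRXN1 and TINAGL1, at 0.013, 0.026 and 0.030. SRPRA, a subunit of the signal recognition particle receptor, went from 113.7 ± 4.07 to 57.0 ± 0.27.

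Around the members, 86 other tested genes of the pathway were read from 8 lists, of which 25 rose and 40 fell (34 and 33 with median-of-ratios scaling). Over all tested genes 20.9% were called higher and 40.4% lower (29.9% and 28.9% with that scaling). The counts of each list below are read against these shares, and lists differ in their balance. The upstream receptors NR1H3 (LXR alpha), NR1H2 (LXR beta) and RXRB rose, 3 of the 4 tested, with a median log2 fold change of 0.26. LXR with its partner RXR is the known activator of SREBP-1c transcription. NR1H3 rose 2.31-fold, from 6.52 ± 0.42 to 15.1 ± 0.27 FPKM (adjusted p = 7.91e-06), and RXRA was 6.03 ± 0.299 and 6.75 ± 0.26 (adjusted p = 0.059; called with median-of-ratios scaling, log2 fold change 0.27). The call of NR1H2 (adjusted p = 0.0196) was lost with no filter on low values and without siControl replicate 3.

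The COPII coat, which buds the vesicles that carry SCAP and SREBP out of the endoplasmic reticulum, was mostly lower. Of 11 genes 8 fell and 1 rose, with a median of -0.40 (7 and 1 with median-of-ratios scaling, median -0.25). The small GTPase gene SAR1B fell from 16.8 ± 1.47 to 10.0 ± 0.13 FPKM, the outer coat gene SEC13 from 88.6 ± 3.27 to 57.2 ± 2.89 and the cargo adaptor gene SEC24A from 26.6 ± 1.23 to 18.5 ± 0.81. SEC24D, another cargo adaptor gene, rose 1.17-fold (log2 fold change 0.21, adjusted p = 0.0107). The decrease of SEC23A (-0.15, adjusted p = 0.0345) was lost in 10 of 16 alternatives and was 0.00099 with median-of-ratios scaling.

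Genes of sterol-driven degradation went both ways: of 14, 4 rose and 6 fell (8 and 3 with median-of-ratios scaling). Without that scaling these counts were near the shares of all tested genes (20.9% higher and 40.4% lower). ERLIN2, part of a membrane complex that binds sterol-sensitive proteins, rose 2.05-fold, from 5.15 ± 0.21 to 10.6 ± 0.43 FPKM. VCP, the ATPase that pulls ubiquitinated proteins from the membrane, rose 1.52-fold. FAF2, its membrane anchor, fell from 21.4 ± 0.84 to 15.02 ± 1.04. RNF145, another ubiquitin ligase of the sterol pathway, was 14.9 ± 0.78 and 14.8 ± 0.44 FPKM (log2 fold change -0.0074, adjusted p = 0.907). With median-of-ratios scaling its sign turned and it was called higher (0.14, adjusted p = 0.0422). MARCHF6, another ligase of that membrane, fell (log2 fold change -0.31, adjusted p = 0.00162).

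Of 5 other regulators of SREBP processing 3 fell and 1 rose, under both scalings. PAQR3, a Golgi protein that tethers SCAP and SREBP, fell from 3.09 ± 0.16 to 1.39 ± 0.099 FPKM, and TMEM41B from 17.4 ± 1.85 to 10.1 ± 0.32. SPRING1, a partner of the site-1 protease, fell 1.22-fold (log2 fold change -0.27, adjusted p = 0.00129), while PGRMC1 rose 1.36-fold. Of 9 genes that act on nuclear SREBP 2 rose and 4 fell, near the shares of all tested genes (20.9% higher and 40.4% lower). The coactivator gene MED15 fell from 8.21 ± 0.62 to 5.50 ± 0.34, the kinase gene CDK8 rose from 6.56 ± 0.28 to 8.77 ± 0.38, and FBXW7, the ligase subunit that removes nuclear SREBP, was 3.35 ± 0.10 and 3.34 ± 0.21 (adjusted p = 0.935). Of 8 other substrates of the site-1 protease, the site-2 protease or both, 3 rose and 3 fell. CREB3 fell 1.51-fold, whereas ATF6B rose 1.45-fold and CREB3L4 from 1.01 ± 0.295 to 2.58 ± 0.26. ATF6 fell 1.23-fold (adjusted p = 0.0161), a call lost with median-of-ratios, upper-quartile and quantile scaling.

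Targets of the SREBPs are given by the factor that mainly drives them. Among 22 SREBP-2 targets other than the members 14 fell and 2 rose (median -0.32; 12 and 3 with median-of-ratios scaling). SQLE and DHCR7, enzymes of cholesterol synthesis, fell from 58.7 ± 2.26 to 26.98 ± 0.66 FPKM and from 128.9 ± 7.97 to 67.7 ± 2.20, beside the 1.99-fold decrease of SREBF2 itself. TM7SF2, a sterol reductase gene, and FDPS, which makes farnesyl diphosphate, rose 2.33-fold and 1.39-fold. Among 14 tested SREBP-1 targets 9 rose and 3 fell (median 0.34; 11 and 3 with median-of-ratios scaling). FASN and FADS2 rose 2.55-fold and 2.59-fold, beside the 4.75-fold of SREBF1, and ACSS2, which makes acetyl-CoA from acetate, fell 1.93-fold. The lists were chosen with earlier results known and share genes with each other, and whether they differ from one another was not tested. INSIG1, a target of both factors, rose while most cholesterol synthesis genes did not.

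**Figure D5:**
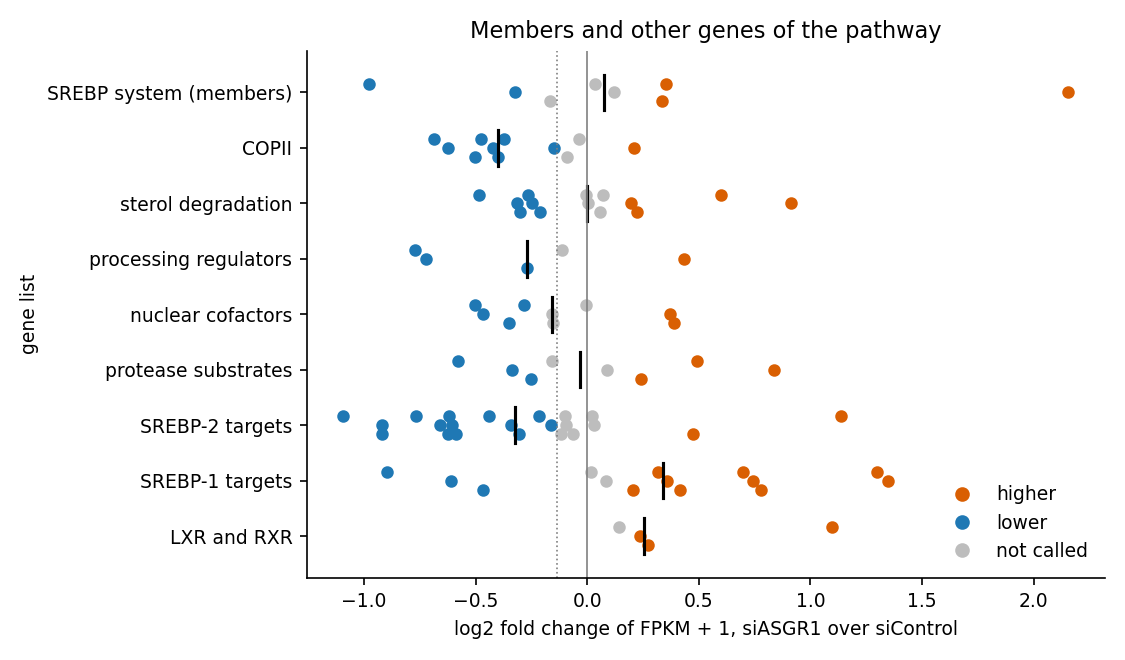
Log2 fold change of FPKM + 1 of each tested gene, siASGR1 over siControl, by list. Orange points were called higher, blue lower and grey not called; black bars are list medians, the solid line is 0 and the dotted line the median of all tested genes (-0.13). The COPII, SREBP-2 target, processing regulator and nuclear cofactor medians lie left of the dotted line. The SREBP-1 target, receptor and member medians lie right of 0, and the other medians lie between the lines.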

How the data were processed

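Per the submitters' processing notes, the authors' tools included HISAT2 2.0.1, cutadapt 1.9.1 and bcl2fastq 2.17.1.14, and the build was hg19. How fragments were counted (program, strand, annotation) is not given in the sources used here. Deposited values are FPKM with 2 decimals, per the file headers, in 1 table of the whole series and 1 file per library. The design had allowed for counts; FPKM need the log-scale test used here. Symbols matched 39538 of 57905 IDs. Coordinates are GENCODE v29 on GRCh38, and promoters and microRNAs are RefSeq on GRCh38.p14.

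The members and lists were chosen with earlier results of these data known. Genes reaching 1 FPKM in 3 or more libraries were tested with limma 3.58.1 (R 4.3.3) on log2(FPKM + 1), with the group as the only term, an empirical Bayes prior with trend, and two-sided Benjamini-Hochberg adjustment over all tested genes. These fold changes understate those of low genes. Ratios of FPKM were compared by exact permutation of libraries. Depth was the number of fragments at which most low FPKM (up to 20 fragments) became whole with GENCODE exon lengths: 96.5% to 97.0% of 2647 to 3787 values per library, against a median of 3.78% to 4.43% over all depths tried. Fragment numbers of long genes are approximate. Named were all members, the called genes with the 4 smallest p-values per list, genes whose role a list needs, and the 3 genes nearest in pattern to each SREBF gene; some genes that this rule names are not reported here. MID1IP1, the summed levels, genes that went against their list (SEC24D, TM7SF2, FDPS) and ATF6 and SEC23A were chosen with their values known. Simulated data, in which few genes changed and in random directions, served to check the fit. A setting with most genes called, as here, was not simulated. Same-numbered libraries did not deviate together.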

Additional observations from a re-analysis of the deposited data

How the results depend on the processing

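Over 16 alternatives of scaling, pseudocount, filter, prior, deposited source, replicate block and left-out libraries, SREBF1, SREBF2, INSIG1 and MBTPS2 kept direction and call, and SCAP was not called in any. INSIG2 was called with the filter at 5 FPKM (-0.16, where fewer genes are tested), and MBTPS1 with median-of-ratios (0.26), upper-quartile (0.19) and quantile scaling (0.20). RNF139 lost its call with median-of-ratios (-0.18) and quantile scaling (-0.22) and with no filter (-0.32, where more genes are tested). The members called lower were then 1, as at an adjusted p under 0.01. Leaving out 1 library at a time gave log2 fold changes of -0.21 to -0.12 for INSIG2 and -0.39 to -0.23 for RNF139, and 1 to 3 members called lower, 3 without siASGR1 replicate 1 and 1 without siASGR1 replicate 3. Genes called lower in all numbered 5480, and 3382 with the filter at 5 FPKM. Single list genes kept direction and call in 1317 of 1368 cases; 30 lost it, 19 gained it, and 2 turned sign with median-of-ratios scaling, SEC23A (0.00) and RNF145 (0.14). Other causes were not tested.

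The replicate number as a block changed no member's call (SREBF1 2.16, adjusted p = 9.57e-05; SREBF2 -0.97, adjusted p = 0.000162) and gave 2761 higher and 5303 lower genes. Correlations of the deviations of same-numbered libraries were -0.019, 0.0021 and 0.012, so these libraries did not deviate together. Whether they shared a culture cannot be told from this. The level ratios kept their direction without each library and with 1 added to FPKM; SCAP to summed INSIG ranged from -0.32 to -0.14 on the log2 scale. Depth limits the hairpin genes, whose values rest on at most 6 fragments.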
